A study of Mus musculus with 15 samples.

Results

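The insulin-like growth factor (IGF) genes of mouse articular chondrocytes were described in 15 RNA-seq libraries. They comprise 2 ligands (*Igf1*, *Igf2*), 2 receptors (*Igf1r*, *Igf2r*) and 6 binding proteins (*Igfbp2* to *Igfbp7*). These 10 genes were chosen by name, among 24134 gene IDs listed in each of 2 count tables, and 10 of 10 passed the filter on low counts in each table. The cells were primary chondrocytes at passage 0, taken from the femoral condyles and tibial plateaus of newborn ICR mice and cultured in serum-containing medium. In the siRNA table, 3 libraries came from cells transfected with control siRNA (siCtrl) and 3 from a double knockdown of the tankyrase genes *Tnks* and *Tnks2* (si*Tnks*/2), for which no time was stated. In the drug table, 3 libraries each came from cells kept for 108 h with the vehicle DMSO, with 10 μM XAV939 or with 10 μM IWR-1, small-molecule tankyrase inhibitors that bind different pockets of the catalytic domain. Library totals were 26857070 to 31254278 counts in the siRNA table and 27438611 to 36615194 in the drug table.

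IGF1 and IGF2 are secreted ligands that signal through the receptor tyrosine kinase IGF1R and, below it, through PI3K, AKT and mTOR. IGF2R, the cation-independent mannose-6-phosphate receptor, takes IGF2 up for degradation in lysosomes and does not relay the growth signal. The binding proteins hold IGFs outside the cell, IGFBP7 with lower affinity than the others, and proteases such as PAPP-A release the ligand. In cartilage, IGF1 is known as an anabolic factor that promotes the synthesis of aggrecan and type II collagen. *Igf2* and *Igf2r* are imprinted genes in the mouse, expressed mainly from the paternal and the maternal allele, respectively.

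The members lie on 7 mouse chromosomes (build mm10). *Igfbp2* (chr1:72824480-72852474, plus strand) and *Igfbp5* (chr1:72858065-72874865, minus strand) are neighbours that face each other end to end, with 5590 bases between them. *Igfbp3* (chr11:7206086-7215498) and *Igf1r* (chr7:67952257-68233668) overlap no other annotated gene. For 4 members, *Igf1*, *Igf2*, *Igf2r* and *Igfbp7*, an annotated gene overlaps on the opposite strand, and since the strand setting of the counting was not stated, reads of the overlapped stretches cannot be told apart. *Igf2* also overlaps the protein-coding gene *Gm49394* and the microRNA gene *Mir483* on its own strand, which no strand setting would separate.

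Of the 4 members that fell with both inhibitors, *Igfbp2*, *Igfbp3* and *Igf1r* are shown by the 250 bases before a RefSeq start (mm10); the fourth, *Igf1*, is not, because its window overlaps an exon in the GENCODE annotation. The windows shown overlap no GENCODE exon on their strand, although that of *Igfbp3* lies within the longer RefSeq span of the gene given above. Each is printed 5′ to 3′ on the strand of its gene, with capitals marking matches, on either strand, to CTTTGA (the TCF/LEF core), ACAATG (a SOX core), TATAAA (the TATA box) or GGGCGG (the GC box). The windows are chr1:72824230-72824479 (plus) for *Igfbp2*, chr11:7213924-7214173 (minus) for *Igfbp3* and chr7:67952007-67952256 (plus) for *Igf1r*.
Igfbp2: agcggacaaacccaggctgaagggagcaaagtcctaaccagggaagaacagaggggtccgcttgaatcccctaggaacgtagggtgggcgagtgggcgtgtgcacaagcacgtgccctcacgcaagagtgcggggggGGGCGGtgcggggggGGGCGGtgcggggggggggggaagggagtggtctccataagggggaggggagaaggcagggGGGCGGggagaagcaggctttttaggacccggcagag
Igfbp3: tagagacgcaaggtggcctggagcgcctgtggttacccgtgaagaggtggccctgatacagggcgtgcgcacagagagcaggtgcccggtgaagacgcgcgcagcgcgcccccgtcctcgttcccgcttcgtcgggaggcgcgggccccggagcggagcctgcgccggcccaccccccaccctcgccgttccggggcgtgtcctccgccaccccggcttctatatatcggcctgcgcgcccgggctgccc
Igf1r: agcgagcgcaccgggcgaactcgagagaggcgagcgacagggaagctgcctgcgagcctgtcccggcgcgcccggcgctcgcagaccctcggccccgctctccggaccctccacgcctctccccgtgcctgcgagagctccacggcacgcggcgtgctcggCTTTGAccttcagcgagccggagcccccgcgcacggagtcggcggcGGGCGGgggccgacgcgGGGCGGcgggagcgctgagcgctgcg

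*Igfbp2* held 3 GC boxes, *Igf1r* held 2 GC boxes and 1 TCF/LEF core, and *Igfbp3* held none of these words, so no word was shared by all of the windows shown. Across the 14 start windows of the members, GC boxes were found in 6 windows (5 of 10 members), TCF/LEF cores in 3 (*Igf1*, *Igf2*, *Igf1r*), TATA boxes in 2 (*Igfbp4*, *Igfbp6*) and the SOX core in 1 (*Igf2*); *Igf2* has 4 of the 14 windows. The TATAAA match of *Igfbp4* began 28 bases before the start on the strand of the gene. That of *Igfbp6* lay on the opposite strand, 148 bases before the start. Over the 32851 windows of all genes, the GC box was present in 32.7%, the TCF/LEF core in 13.8%, the TATA box in 12.4% and the SOX core in 10.7%. The TCF/LEF core is the word bound by the partners of β-catenin, whose degradation tankyrase inhibitors promote; a match in these windows is a description and not a binding site.

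The siRNAs lowered their targets in part, *Tnks* to 0.285-fold and *Tnks2* to 0.465-fold of siCtrl. *Tnks* was at 69.0, 58.4 and 70.1 CPM (counts scaled by the TMM library size to a common depth) in siCtrl and at 19.5, 12.7 and 24.0 in si*Tnks*/2. *Tnks2* was at 118.5, 119.6 and 115.1 CPM against 58.2, 44.9 and 61.2. Chondrocyte markers were high in every library, but their level differed by group. The 10 listed markers summed to 82300 to 112000 CPM in siCtrl and 121000 to 201000 in si*Tnks*/2. In the drug table they summed to 26100 to 35600 with DMSO, 36800 to 55800 with XAV939 and 88000 to 113000 with IWR-1. With si*Tnks*/2, XAV939 and IWR-1, 5, 5 and 10 of the 10 were higher, respectively. The 7 listed markers of fibroblasts or dedifferentiated chondrocytes summed to 12400 to 15800 CPM with DMSO, 6530 to 8530 with XAV939 and 6070 to 9080 with IWR-1. In the siRNA table they summed to 5780 to 9510 in siCtrl and 2950 to 8200 in si*Tnks*/2. The DMSO libraries thus lay below siCtrl in chondrocyte markers and above it in fibroblast markers. The 5 endothelial markers summed to at most 1.59 CPM in all libraries but si*Tnks*/2 replicate 2, where they reached 6.88. That library also had the lowest fibroblast-marker sum, 2950 CPM against 7240 and 8200 in the other si*Tnks*/2 libraries, and it stood apart for several members.

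Compared per length, as CPM divided by the kilobases of exon (RPKM), *Igf2* was the most abundant member in all 5 groups and *Igf1* or *Igfbp2* the least. *Igf2* averaged 1280 RPKM in siCtrl, 2050 in si*Tnks*/2, 1420 with DMSO, 1520 with XAV939 and 2250 with IWR-1. It alone took up 0.66% to 0.853% of all counts in siCtrl and 0.943% to 1.38% in si*Tnks*/2. In the drug table its part was 0.77% to 0.82% with DMSO, 0.82% to 0.962% with XAV939 and 1.25% to 1.38% with IWR-1. The next members in each group were *Igfbp7* with *Igfbp5* (siRNA table) or *Igfbp4* (drug table). *Igf2r* averaged 43.1 to 91.1 RPKM in the 5 groups. *Igf1r* stayed between 4.09 and 6.98 RPKM in the group means, and *Igf1* between 0.186 and 1.95 RPKM.

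Neighbours in this order did not always differ beyond their spread. In siCtrl the ranges of *Igf1r* and *Igfbp3* overlapped, in si*Tnks*/2 those of *Igfbp3* and *Igf1r* and of *Igf1r* and *Igfbp2*, and with DMSO those of *Igfbp3*, *Igfbp5* and *Igf2r*. With XAV939 overlaps ran from *Igfbp4* to *Igfbp7*, from *Igf2r* through *Igfbp5* and *Igfbp6* to *Igfbp3*, and from *Igf1* to *Igfbp2*. With IWR-1 the ranges of *Igfbp4*, *Igfbp5* and *Igf2r*, and of *Igf1* and *Igfbp2*, overlapped. The tables were normalized separately, so levels set across them are descriptions only.

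**Figure D1:**
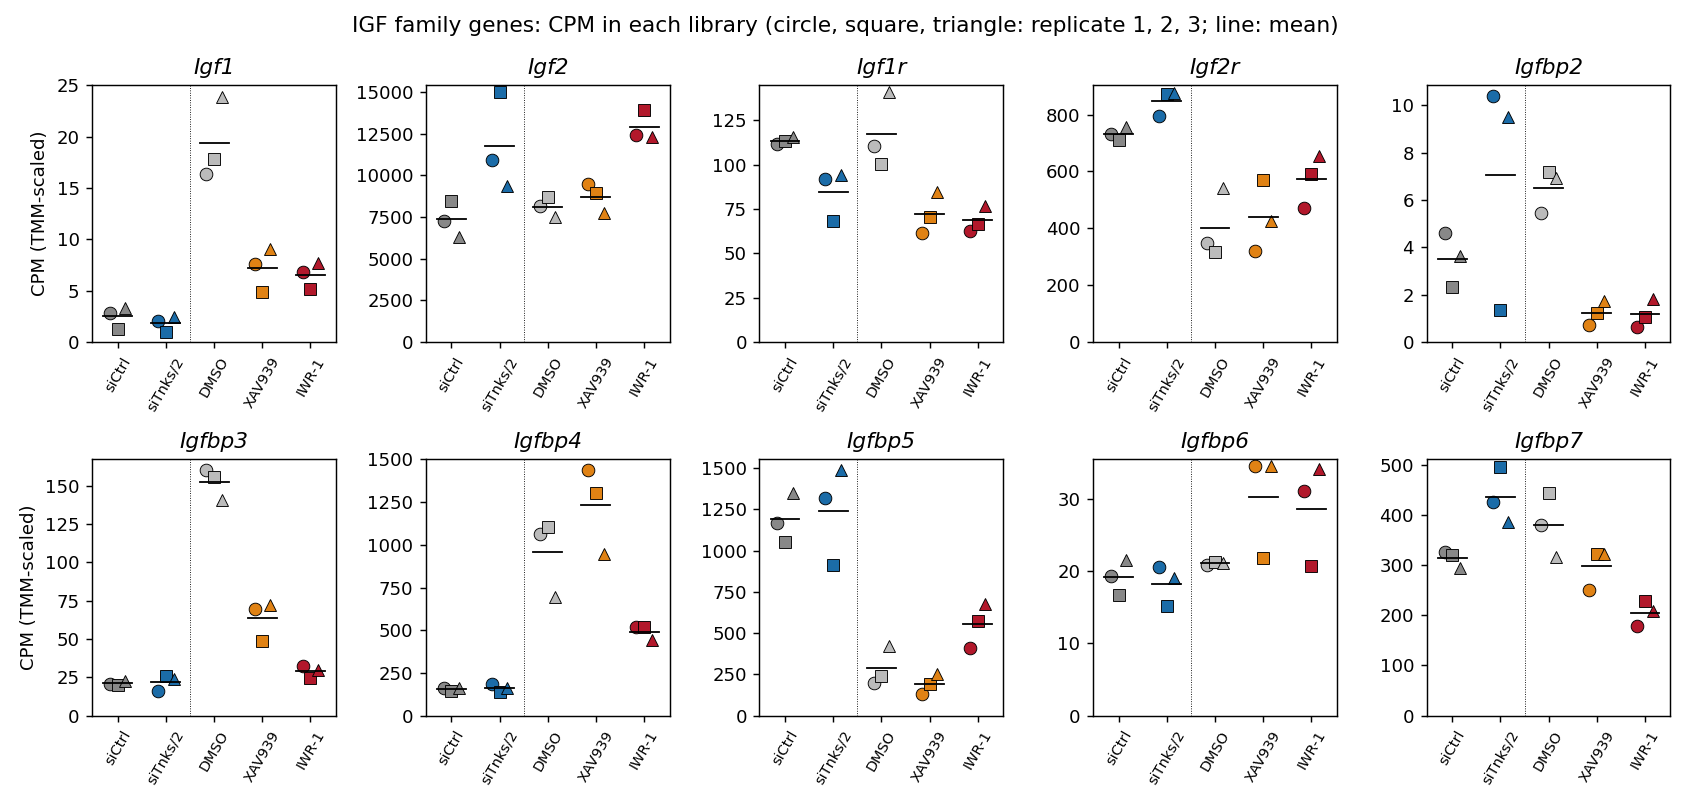
Level of each IGF family gene in TMM-scaled CPM (linear y axis from 0, scaled per gene) in the 15 libraries, with the siRNA table left and the drug table right of the dotted line. Points are libraries, shapes are replicate numbers and lines are means of 3 libraries; Igfbp3 falls in steps from DMSO (140.8 to 160.5) to XAV939 (48.9 to 72.0) and IWR-1 (24.4 to 32.2).

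The first comparison asked how knockdown of both tankyrase genes altered these genes. After knockdown, 1 of 10 members passed the test, *Igfbp7*, which rose 1.39-fold. Over all genes tested, 18.0% changed, 10.4% higher and 7.61% lower. With 10 members, 1 call cannot be told apart from that share. The members' median log2 fold change was 0.06 against 0 for all genes. *Igf2* and *Igf1r* showed the next smallest adjusted p-values, with estimates of 1.6-fold and 0.747-fold. The other binding proteins showed little difference or varied widely between libraries.

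*Igfbp7*, the low-affinity binding protein, was at 326.6, 319.6 and 293.5 CPM in siCtrl and at 424.9, 495.7 and 385.5 CPM in si*Tnks*/2. All 3 knockdown libraries lay above all controls (log2 fold change 0.47 ± 0.10 SE, adjusted p = 0.0243). The call was lost without siCtrl replicate 1 (adjusted p = 0.0806), siCtrl replicate 2 (0.0769), siCtrl replicate 3 (0.0961) or si*Tnks*/2 replicate 1 (0.0713).

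Among the ligands, *Igf2* was at 7269, 8463 and 6310 CPM in siCtrl and at 10900, 14980 and 9366 in si*Tnks*/2. The groups did not overlap, but the difference missed the threshold (0.68 ± 0.20, adjusted p = 0.0602). It passed with the DESeq2 Wald test (0.67, adjusted p = 0.00344) and with the replicate number as a block (0.66, adjusted p = 0.00727). It also passed without si*Tnks*/2 replicate 3 (0.82, adjusted p = 0.0444). *Igf1* was measured at only 28 to 109 counts per library and its groups overlapped (2.83, 1.29 and 3.34 CPM in siCtrl, 2.08, 0.998 and 2.45 in si*Tnks*/2). The estimate for *Igf1* was −0.44 ± 0.43 (adjusted p = 0.505), with a 95% confidence interval from −1.45 to 0.58. For the *Igf1* level as for every level in these bulk samples, fewer cells of a type and less RNA per cell cannot be told apart.

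Both receptors came close to the threshold, in opposite directions. *Igf1r* was at 111.4, 113.1 and 115.3 CPM in siCtrl and at 91.6, 68.0 and 94.3 in si*Tnks*/2, all below the controls. Its log2 fold change was −0.42 ± 0.12 (adjusted p = 0.0546). It passed with the DESeq2 Wald test (−0.42, adjusted p = 0.0146) and with the block (−0.43, adjusted p = 0.0231). It also passed without si*Tnks*/2 replicate 2 (−0.29, adjusted p = 0.011) or replicate 3 (−0.50, adjusted p = 0.048). *Igf2r* was at 730.7, 710.3 and 757.2 CPM in siCtrl against 796.4, 871.4 and 876.6, without overlap. The difference for *Igf2r* was 0.21 ± 0.07 (adjusted p = 0.0845). It passed with the DESeq2 Wald test (0.21, adjusted p = 0.028) and with the block (0.21, adjusted p = 0.0427). With the block, 4 of 10 members were called in this comparison, near the 34.6% of all genes called by that fit. Leaving out si*Tnks*/2 replicate 2 or replicate 3 gave 3 members each, with 2868 and 2229 genes called in all. The DESeq2 Wald test called 4 members and 3123 genes in all.

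The other binding proteins did not pass. *Igfbp2* was at 4.6, 2.33 and 3.64 CPM in siCtrl and at 10.4, 1.36 and 9.50 CPM in si*Tnks*/2. The si*Tnks*/2 replicate 2 library was the lowest of all 6, while the others were the highest (1.0 ± 0.65, adjusted p = 0.316). Without it, the *Igfbp2* difference was 1.48 (adjusted p = 0.00803). *Igfbp3*, *Igfbp4*, *Igfbp5* and *Igfbp6* had estimates from −0.07 to 0.06, and their groups overlapped; the widest of their 95% confidence intervals, that of *Igfbp5*, ran from −0.38 to 0.50.

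**Figure D2:**
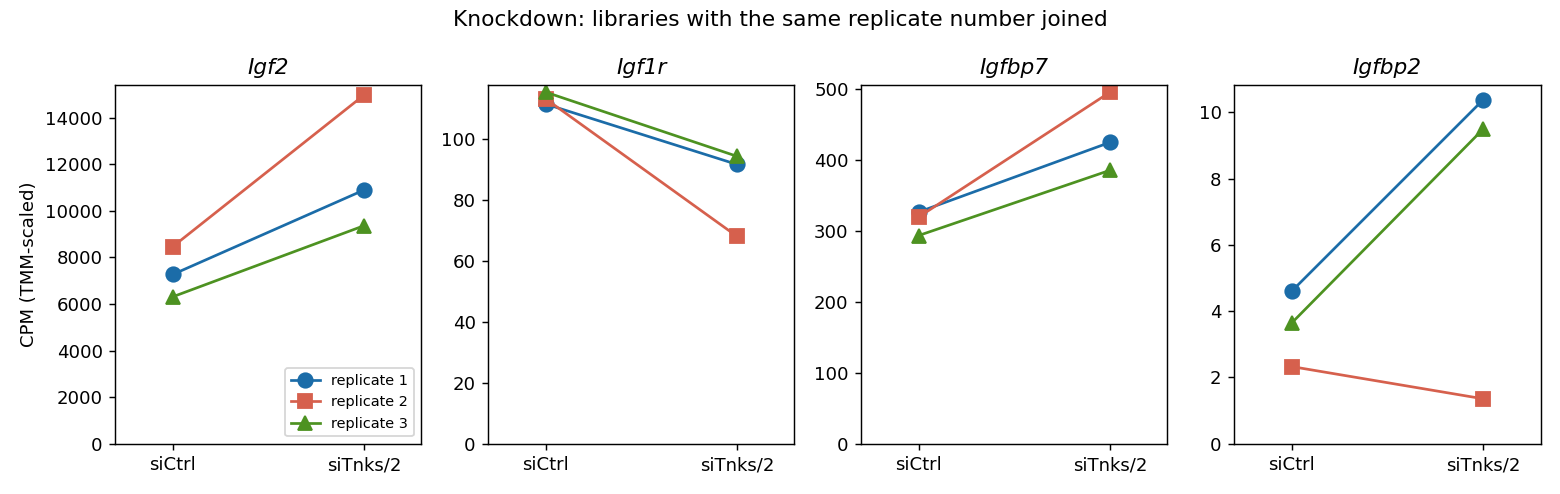
TMM-scaled CPM (linear y axis from 0) of Igf2, Igf1r, Igfbp7 and Igfbp2 in siCtrl and siTnks/2 libraries, with lines joining libraries of the same replicate number. Igf2 and Igfbp7 rise and Igf1r falls in 3 of 3 pairs, while Igfbp2 is higher in 2 pairs and lower in replicate 2.

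The second comparison asked how XAV939 altered the family. Of the 10 members, 4 fell and 0 rose: *Igf1* (0.372-fold), *Igf1r* (0.615-fold), *Igfbp2* (0.188-fold) and *Igfbp3* (0.417-fold). Across all genes 17.4% changed, 7.57% higher and 9.85% lower. The median log2 fold change of the members was −0.47 against 0.02 for all genes. With the replicate block, 8 of 10 members were called, where the same fit called 33.4% of all genes.

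The third comparison, of IWR-1 with DMSO, altered more members. Here 8 of 10 passed: the same 4 genes and *Igfbp4* and *Igfbp7* fell, and *Igf2* and *Igfbp5* rose. IWR-1 also changed more genes in all, 36.4% of those tested, with 16.2% higher and 20.2% lower. The members' median was −0.83 against 0.01. With the block, 10 of 10 members and 47.5% of all genes were called. The XAV939 and IWR-1 comparisons share their DMSO libraries and are therefore not independent of each other.

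**Figure D3:**
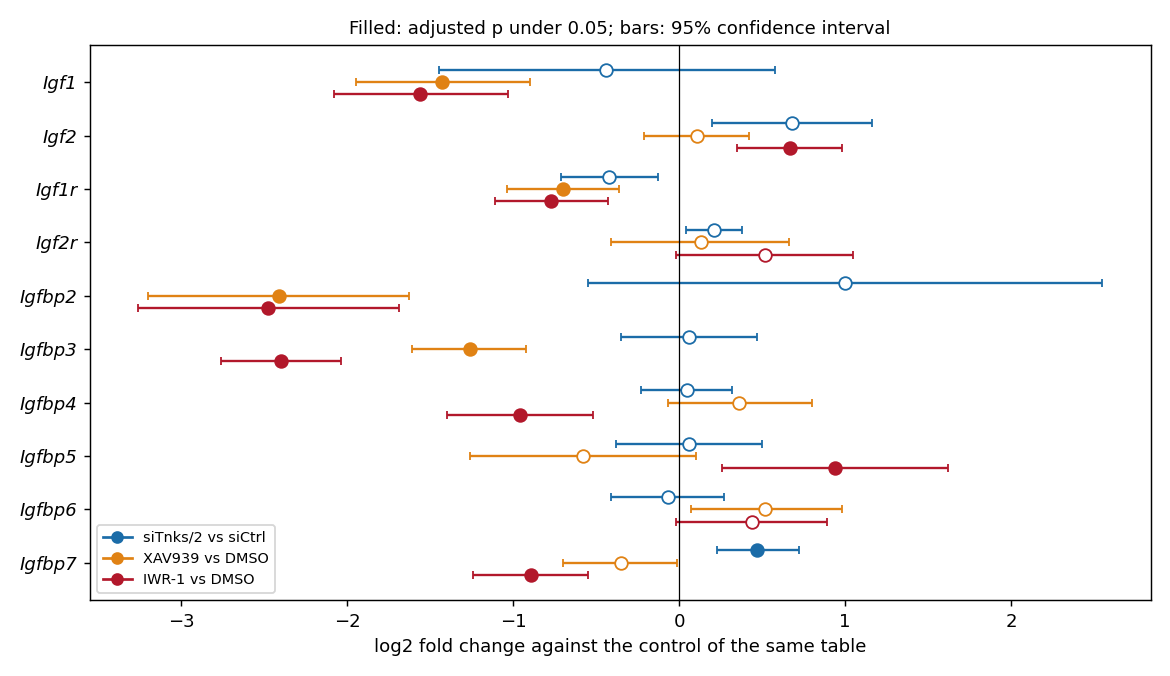
Log2 fold change (x axis) of each IGF family gene against the control of its own table, with 95% confidence intervals from edgeR. Filled points passed an adjusted p of 0.05: 1 for siTnks/2, 4 for XAV939 and 8 for IWR-1.

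Of the ligands, *Igf1* was lower in each inhibitor-treated library than in any DMSO library. It was at 16.4, 17.8 and 23.9 CPM with DMSO, 7.63, 4.84 and 9.04 with XAV939, and 6.86, 5.17 and 7.65 with IWR-1. The log2 fold change was −1.43 ± 0.24 with XAV939 (adjusted p = 0.00254) and −1.56 ± 0.24 with IWR-1 (adjusted p = 0.000475). *Igf2* was at 8131, 8678 and 7512 CPM with DMSO, 9496, 8938 and 7732 with XAV939, and 12400, 13930 and 12270 with IWR-1. XAV939 and DMSO overlapped (0.11 ± 0.14, adjusted p = 0.645), whereas all IWR-1 libraries lay above the rest (0.67 ± 0.14, adjusted p = 0.00394).

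Of the receptors, *Igf1r* was at 110.5, 100.1 and 140.9 CPM with DMSO, 61.5, 70.2 and 84.5 with XAV939, and 62.8, 66.4 and 76.7 with IWR-1. It was lower without overlap by −0.70 ± 0.15 (adjusted p = 0.0111) and −0.77 ± 0.15 (adjusted p = 0.00266) on the log2 scale. *Igf2r* was at 347.2, 314.9 and 542.8 CPM with DMSO, 320.2, 570.0 and 424.3 with XAV939, and 473.1, 592.8 and 656.2 with IWR-1, and the groups overlapped. For *Igf2r* the estimates were 0.13 ± 0.24 (adjusted p = 0.76) and 0.52 ± 0.24 (adjusted p = 0.125). The IWR-1 difference passed with the replicate block (0.52, adjusted p = 0.0287) and without DMSO replicate 3, the highest of the controls (0.79, adjusted p = 0.0206).

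*Igfbp2* had the lowest estimate of the family with each inhibitor, followed by *Igfbp3* with IWR-1 and by *Igf1* with XAV939. *Igfbp2*, a binding protein made by many mesenchymal cells, was at 5.46, 7.19 and 6.91 CPM with DMSO, 0.728, 1.24 and 1.73 with XAV939, and 0.640, 1.06 and 1.80 with IWR-1. All treated libraries were below all controls, by −2.41 ± 0.35 (adjusted p = 0.00135) and −2.48 ± 0.35 (adjusted p = 0.000316) on the log2 scale, from 22 to 62 counts per treated library. *Igfbp3*, the main carrier of IGFs in serum, was at 160.5, 156.0 and 140.8 CPM with DMSO, 69.8, 48.9 and 72.0 with XAV939, and 32.2, 24.4 and 30.1 with IWR-1. The 3 groups did not overlap, and the log2 fold changes were −1.26 ± 0.16 (adjusted p = 0.000509) and −2.40 ± 0.16 (adjusted p = 3.38e-06).

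*Igfbp4*, an inhibitory binding protein that is cut by PAPP-A, was at 1065, 1106 and 697.3 CPM with DMSO, 1439, 1305 and 947.1 with XAV939, and 520.0, 516.4 and 441.5 with IWR-1. IWR-1 libraries were below all others (−0.96 ± 0.20, adjusted p = 0.00333). XAV939 libraries overlapped DMSO, with an estimate of 0.36 ± 0.20 (adjusted p = 0.232; 0.37 with the block, adjusted p = 0.0205). *Igfbp5*, which binds extracellular matrix, was at 197.0, 243.3 and 422.2 CPM with DMSO, 131.6, 191.4 and 254.8 with XAV939, and 408.4, 575.2 and 674.0 with IWR-1. IWR-1 overlapped DMSO only through DMSO replicate 3, and XAV939 overlapped it more widely.

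*Igfbp5* nevertheless passed for IWR-1 (0.94 ± 0.31, adjusted p = 0.0338). That call was lost without DMSO replicate 1 (adjusted p = 0.125), DMSO replicate 2 (0.0949), IWR-1 replicate 2 (0.0846), IWR-1 replicate 3 (0.117) or XAV939 replicate 2 (0.0513). With XAV939 the *Igfbp5* estimate was −0.58 ± 0.31 (adjusted p = 0.221), and with the block −0.56 (adjusted p = 0.00257).

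*Igfbp6*, which prefers IGF2 over IGF1, was at 20.9, 21.3 and 21.1 CPM with DMSO, 34.6, 21.8 and 34.5 with XAV939, and 31.0, 20.6 and 34.1 with IWR-1. Replicate 2 of each inhibitor was close to the controls, unlike the other replicates. The estimates for *Igfbp6* were 0.52 ± 0.21 (adjusted p = 0.105) and 0.44 ± 0.21 (adjusted p = 0.123). They passed with the block (0.49, adjusted p = 0.020, and 0.40, adjusted p = 0.0332), and without XAV939 replicate 2 (0.71, adjusted p = 0.0348) or IWR-1 replicate 2 (0.63, adjusted p = 0.0332), respectively.

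*Igfbp7* was at 380.2, 444.0 and 316.7 CPM with DMSO, 250.1, 321.5 and 320.9 with XAV939, and 177.6, 228.9 and 208.0 with IWR-1. IWR-1 was below both other groups (−0.89 ± 0.16, adjusted p = 0.00112). XAV939 overlapped DMSO (−0.35 ± 0.15, adjusted p = 0.14; −0.36 with the block, adjusted p = 0.0337).

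Markers of other cell types or states moved with these changes. Of the 7 fibroblast markers, *Col1a1*, *Col3a1* and *Pdgfra* fell with both inhibitors (log2 fold changes of −1.16, −1.18 and −1.20 with XAV939, and −1.39, −1.54 and −1.77 with IWR-1), *Postn* rose with both (1.22 and 1.32), and the other 3 passed with neither. The 6 leukocyte markers summed to at most 23 CPM, the 5 skeletal muscle markers to at most 7.35 CPM and the 3 adipocyte markers to at most 0.754 CPM. The 4 osteoblast markers summed to between 42.2 and 131 CPM over all libraries. Of these, *Sp7* rose with XAV939 and IWR-1 (1.65 and 2.50) and so did *Bglap* (1.91 and 1.54). The leukocyte marker *Cd74* rose with both (2.18 and 1.20), while *Cd68* (−1.03), *Csf1r* (−1.26) and the endothelial marker *Tek* (−2.79) fell with IWR-1. None of the 7 fibroblast markers was at 0 in any group, and the part of any of these cells in the members' changes was not tested.

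The make-up of the binding protein transcripts was computed per length, as a share of the summed RPKM of the 6 genes. *Igfbp7* was 40.7% to 57.2% of the sum in the group means. *Igfbp4* made up 33.0% (range 28.3% to 36.5%) with DMSO, 45.9% (37.2% to 53.6%) with XAV939 and 27.5% (23.5% to 31.7%) with IWR-1. *Igfbp5* made up 7.7%, 5.34% and 22.3%, and its IWR-1 range (18.3% to 26.4%) lay above that of DMSO (4.96% to 12.6%). *Igfbp3* went from 7.54% with DMSO to 3.38% and 2.28%. The sum itself was 558 to 731 RPKM with DMSO, 577 to 629 with XAV939 and 371 to 429 with IWR-1.

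In siCtrl, *Igfbp5* (38.1%) took the place that *Igfbp4* (6.87%) held with DMSO. *Igfbp3* was 1.3% in siCtrl. The controls of the tables thus differed in the starting level of these genes, and table, culture time and treatment cannot be told apart in levels set across them.

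**Figure D4:**
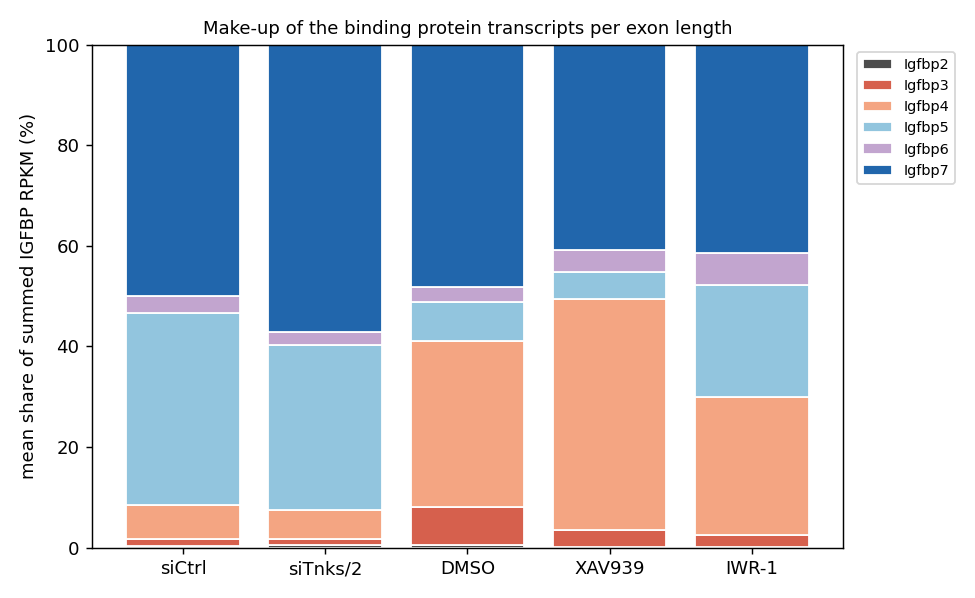
Mean share (y axis, percent; 3 libraries per group) of each binding protein in the summed RPKM of Igfbp2 to Igfbp7, as stacked bars that add up to 100%. Igfbp5 takes 38.1% in siCtrl but 7.7% with DMSO and 22.3% with IWR-1.

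IWR-1 was then set directly against XAV939, at the same dose and time. Here 5 of 10 members differed, 2 higher and 3 lower with IWR-1; of all genes 17.6% differed, 7.37% higher and 10.2% lower. *Igfbp5* was higher with IWR-1 by 1.52 ± 0.31 (adjusted p = 0.00744) and *Igf2* by 0.56 ± 0.14 (adjusted p = 0.0208) on the log2 scale. *Igfbp4* was lower (−1.32 ± 0.20, adjusted p = 0.00153), as were *Igfbp3* (−1.14 ± 0.16, adjusted p = 0.000927) and *Igfbp7* (−0.54 ± 0.16, adjusted p = 0.0359). The members' median was −0.08 against 0 for all genes.

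Some of these calls rested on single libraries, and 3 of 10 members remained past the threshold without IWR-1 replicate 1, IWR-1 replicate 2 or XAV939 replicate 3. Those fits also called fewer genes in all, 1419, 1343 and 1960 against 2442 with all libraries, so the loss was not particular to the members. *Igf2* lost its call without IWR-1 replicate 1 (adjusted p = 0.0582), IWR-1 replicate 2 (0.0957) or XAV939 replicate 3 (0.0659). *Igfbp7* lost its call without DMSO replicate 1 (adjusted p = 0.0555), without any 1 of the IWR-1 libraries (0.142, 0.0591 and 0.0844) or without XAV939 replicate 2 (0.0941) or 3 (0.0977).

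*Igf1*, *Igf1r* and *Igfbp2*, which fell with each inhibitor, did not pass in this comparison, and that does not show that the inhibitors acted alike on them. The 95% confidence interval of the log2 difference was −0.66 to 0.40 for *Igf1*, −0.41 to 0.27 for *Igf1r* and −0.92 to 0.78 for *Igfbp2*. It was −0.15 to 0.93 for *Igf2r* and −0.54 to 0.37 for *Igfbp6*.

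The effects of the inhibitors were next compared with that of the knockdown, by an interaction contrast over the 15 libraries. For XAV939, 3 of 10 members differed, all lower with the inhibitor relative to its control, where 13.5% of all genes differed and 8.07% were lower. The differences were −3.42 ± 0.78 for *Igfbp2* (adjusted p = 0.011), −1.34 ± 0.24 for *Igfbp3* (adjusted p = 0.00291) and −0.84 ± 0.20 for *Igfbp7* (adjusted p = 0.0148). The *Igfbp2* difference, here and for IWR-1, includes a knockdown estimate that did not pass (1.0 ± 0.65, adjusted p = 0.316). Its ratios in the same-number pairs were 2.26, 0.582 and 2.61, and the counts of this gene were low. With the block 7 of 10 were called, against 28.2% of all genes, with *Igf1* (−1.03, adjusted p = 0.00479), *Igf2* (−0.57, 0.0140), *Igfbp5* (−0.61, 0.0114) and *Igfbp6* (0.54, 0.0426) added.

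For IWR-1, 4 of 10 members differed, 0 higher and 4 lower, against 24.4% of all genes, 10.5% higher and 13.9% lower. These were *Igfbp2* (−3.48 ± 0.78, adjusted p = 0.00458), *Igfbp3* (−2.47 ± 0.24, adjusted p = 1.09e-05), *Igfbp4* (−1.01 ± 0.25, adjusted p = 0.00924) and *Igfbp7* (−1.38 ± 0.20, adjusted p = 0.000256). With the block, which called 36.3% of all genes, *Igf1* (−1.15, adjusted p = 0.00142) and *Igfbp5* (0.94, adjusted p = 0.000469) were added. Without the block, leaving out si*Tnks*/2 replicate 2 added *Igf1* (−1.43, adjusted p = 0.0344), and leaving out DMSO replicate 3 added *Igfbp5* (1.26, adjusted p = 0.0214).

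The interaction did not pass for *Igf2*, for which the IWR-1 effect minus the knockdown effect was −0.02 (95% confidence interval −0.55 to 0.50). It did not pass for *Igf1r* either, with intervals from −0.75 to 0.16 for XAV939 and from −0.82 to 0.10 for IWR-1. *Igfbp3* started from 19.9 to 22.8 CPM in siCtrl and from 140.8 to 160.5 CPM with DMSO. *Igfbp7* started from closer levels, 293.5 to 326.6 CPM in siCtrl and 316.7 to 444.0 CPM with DMSO, and was higher in 3 of 3 knockdown pairs and lower in 3 of 3 IWR-1 pairs.

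**Figure D5:**
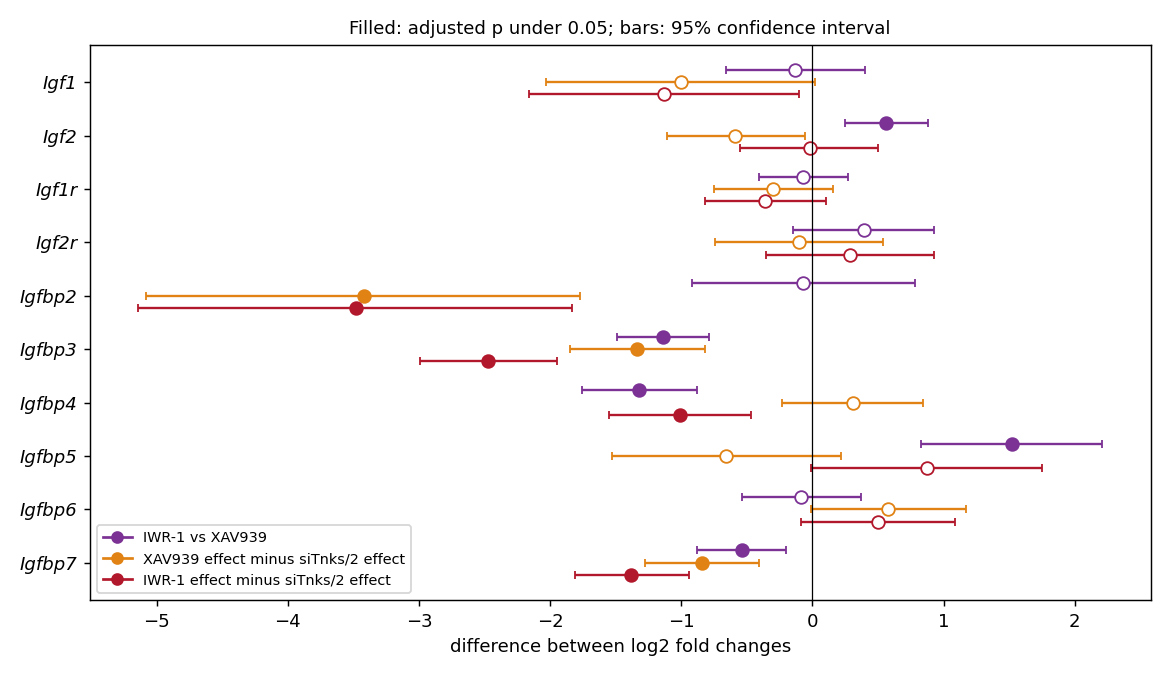
Difference between effects (x axis, log2) for each IGF family gene, as IWR-1 against XAV939 and as each inhibitor's effect minus the knockdown effect, with 95% confidence intervals. Filled points passed an adjusted p of 0.05; Igfbp3 and Igfbp7 lie below 0 in all of the contrasts shown.

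The genes that act around and below the members were read from a list of 47, of which 43 were tested (*Igfbp1*, *Igfbpl1*, *Ins2* and *Insrr* were too low). With the knockdown 12 passed, 10 higher and 2 lower, and the list's median log2 fold change was 0.07 against 0. With XAV939 9 passed, 2 higher and 7 lower (median −0.21 against 0.02). With IWR-1 16 passed, 6 higher and 10 lower (median −0.17 against 0.01). The shares of all genes called, given above, were 18.0%, 17.4% and 36.4%, so for the inhibitors the list was near that background. The calls were spread over regulators of binding proteins, adaptors, kinases and the growth hormone axis.

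Among the regulators of binding proteins, *Stc1*, which encodes stanniocalcin-1, an inhibitor of PAPP-A, was at 62.1, 49.7 and 69.6 CPM with DMSO, 19.5, 15.9 and 28.2 with XAV939, and 10.4, 11.5 and 16.1 with IWR-1. It fell by 1.51 (adjusted p = 0.00147) and 2.25 (adjusted p = 3.81e-05) on the log2 scale; all treated libraries lay below DMSO, and the inhibitor groups overlapped. *Pappa*, the gene of PAPP-A itself, was at 55.3, 40.8 and 72.1 CPM with DMSO and at 94.1, 77.6 and 100.8 with IWR-1, above all controls (0.70 ± 0.18, adjusted p = 0.0122). Against XAV939 the *Pappa* difference was 1.16 (adjusted p = 0.00196) and the *Stc1* difference −0.74 (adjusted p = 0.0463). *Htra1*, a secreted protease that cuts binding proteins, was lower with IWR-1 than with XAV939 (−0.72, adjusted p = 0.00973). With the knockdown *Htra1* rose (0.36, adjusted p = 0.0186).

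In the growth hormone axis, which drives *Igf1* in liver, 2 feedback inhibitors of the same family moved apart with IWR-1. *Socs2* was at 3.35, 5.70 and 4.71 CPM with DMSO and 17.4, 23.4 and 16.1 with IWR-1, a rise of 2.04 ± 0.21 (adjusted p = 3.31e-05). *Cish* was at 6.43, 6.64 and 5.0 CPM with DMSO and 2.47, 2.25 and 1.89 with IWR-1, a change of −1.45 ± 0.18 (adjusted p = 0.000107). Both also differed from XAV939, by 1.52 for *Socs2* (adjusted p = 0.000752) and −1.29 for *Cish* (adjusted p = 0.000884). With the knockdown *Socs2* rose by 0.46 (adjusted p = 0.0488).

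Of the IGF2 mRNA-binding proteins, which bind *Igf2* and other transcripts, *Igf2bp3* and *Igf2bp1* fell. *Igf2bp3* was at 22.2, 24.7 and 23.8 CPM in siCtrl and 11.2, 10.3 and 14.4 in si*Tnks*/2, without overlap (−0.98 ± 0.13, adjusted p = 0.0074). It also fell with XAV939 (−0.57, adjusted p = 0.0174), and was at 10.3 to 12.4 CPM with IWR-1 against 18.4 to 20.2 with DMSO. *Igf2bp1* was at 3.20, 2.91 and 4.46 CPM with DMSO, 1.67, 1.46 and 2.10 with XAV939, and 1.22, 1.80 and 2.06 with IWR-1. All treated libraries lay below the controls, by −1.01 (adjusted p = 0.0186) and −1.06 (adjusted p = 0.00669). With the knockdown the *Igf2bp1* estimate was −1 ± 0.3 and missed the threshold (adjusted p = 0.0586).

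Of the adaptors and kinases, *Irs1*, the docking protein below IGF1R, rose with XAV939 (0.50, adjusted p = 0.00323) and IWR-1 (0.76, adjusted p = 8.1e-05). It also rose with the knockdown (0.41, adjusted p = 0.0208). *Stat5a*, a transcription factor of the growth hormone axis, rose with XAV939 (0.41, adjusted p = 0.047) and with the knockdown (0.37, adjusted p = 0.0172). *Pik3cb*, a catalytic subunit of PI3K, was higher with IWR-1 than with XAV939 (0.94, adjusted p = 0.000927). With the knockdown *Igfals*, the acid-labile subunit that stabilizes IGF complexes in serum, rose by 0.80 (adjusted p = 0.0235) and *Foxo1*, a transcription factor held back by AKT, by 0.49 (adjusted p = 0.0125); *Foxo1* fell with IWR-1 (−0.35, adjusted p = 0.0457). *Mtor* fell by 0.48 on the log2 scale (adjusted p = 0.0241).

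For this list too, single libraries and the block mattered. Without siCtrl replicate 1, 2 or 3, or si*Tnks*/2 replicate 1, between 1 and 3 genes remained past the threshold in the knockdown. Those fits called 608, 930, 678 and 800 of all genes, against 2459 with all libraries. The loss of calls was thus not particular to this list. With the block 24 of the 43 tested passed, where that fit called 34.6% of all genes. For the direct comparison of inhibitors 8 of 43 passed (4 higher and 4 lower), near the 17.6% of all genes. The count was 17 with the block (4258 of all genes), 5 without IWR-1 replicate 2 (1343) and 13 without XAV939 replicate 2 (2338). For the difference between the XAV939 and knockdown effects 8 of 43 passed (0 higher and 8 lower), against 13.5% of all genes (8.07% lower). The lowest values were those of *Pappa2* (−2.98, adjusted p = 0.0316) and *Stc1* (−1.94, 0.00117). That count of list genes was 4 without XAV939 replicate 1 (1414 of all genes) or si*Tnks*/2 replicate 1 (1364). It was 5 without siCtrl replicate 1 (1241), siCtrl replicate 2 (1428) or si*Tnks*/2 replicate 3 (1743). With the block it was 17, where 28.2% of all genes were called. For IWR-1 17 of 43 passed (5 higher and 12 lower), against 24.4% of all genes (10.5% higher and 13.9% lower). The count was 11 without IWR-1 replicate 1 (2726 of all genes) or siCtrl replicate 1 (2758). The highest were *Socs2* (1.57, adjusted p = 0.000573), *Pappa* (0.92, 0.0406) and *Pik3cb* (0.61, 0.0156), and the lowest *Stc1* (−2.67, 3.5e-05), *Htra1* (−1.33, 0.000185) and *Cish* (−1.20, 0.0171).

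For the members that changed more than 3-fold, *Igfbp2* and *Igfbp3*, the genes most like them across the 9 libraries of the drug table were read by the correlation of log2 CPM. For *Igfbp2* these were *Sfrp2* (Pearson r = 0.990), *Ntrk3* (0.989) and *Prok2* (0.987), and 365 of 13872 other genes exceeded 0.9. For *Igfbp3* they were *Cxcl3* (0.996), *Tnfsf9* (0.996) and *Prr36* (0.995), with 831 genes above 0.9. These libraries share their groups and replicate numbers, so the values are descriptions across 9 points that mostly separate treated from control cells.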

How the data were processed

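Poly(A) RNA was sequenced from 15 libraries in 5 groups of 3, which the series describes as biological replicates. The authors used Trimmomatic 0.32 for trimming, TopHat2 2.0.13 for alignment to mm10 and HTSeq 0.6.1p1 for counting per gene (versions per the submitters' processing notes). The deposited values are raw counts; annotation and strand setting were not given in the sources used here. Members were found by Entrez ID. Genes passing filterByExpr were tested with edgeR 4.0.16 (R 4.3.3): TMM, quasi-likelihood F test, Benjamini-Hochberg over all genes tested (13672 siRNA, 13873 drug, 14271 both), called at adjusted p under 0.05. The drug table was fitted over its 9 libraries, and the differences between inhibitor and knockdown effects over 15. The prior count behind log2 fold changes was 0.125; SE and 95% intervals come from the F statistic. RPKM used the summed exon length of the annotation.

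The members and lists were chosen with earlier results of these data known. The rule for named genes was all members, and of the pathway list the called genes with the 3 highest and 3 lowest log2 fold changes per comparison, and the 3 genes most correlated with each member past 3-fold. A gene that the rule covers is not reported here. Libraries with the same replicate number deviated together (residual correlations 0.424 to 0.519 in the siRNA table and 0.143 to 0.553 in the drug table, all above 0.1; up to 0.097 and 0.318 for different numbers), so fits with the replicate number as a block are given where they change a call. The pairing comes from the replicate numbers alone. DMSO replicate 2 correlated more with replicate 1 of XAV939 and IWR-1 (0.318 and 0.316) than with their replicate 2 (0.143 and 0.244). For that library the number did not mark its closest partner. Alternatives were RLE and upper-quartile scaling, no filter, DESeq2 1.42.0, the block, fits of only the groups compared, and leaving out each library. The steps were tested on simulated data. Intervals and totals cover counting error and the spread between these libraries only.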

Additional observations from a re-analysis of the deposited data

Results flagged for a closer look

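For 5 members the effects of the inhibitors differed from each other in the test of the difference itself (edgeR, IWR-1 minus XAV939, log2): *Igf2* (0.56, adjusted p = 0.0208), *Igfbp3* (−1.14, 0.000927), *Igfbp4* (−1.32, 0.00153), *Igfbp5* (1.52, 0.00744) and *Igfbp7* (−0.54, 0.0359). *Igfbp5* and *Igfbp4* had estimates of opposite sign under the inhibitors against DMSO.

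For 3 members the XAV939 effect differed from the knockdown effect: *Igfbp2* (−3.42, adjusted p = 0.011), *Igfbp3* (−1.34, 0.00291) and *Igfbp7* (−0.84, 0.0148). For 4 members the IWR-1 effect did: *Igfbp2* (−3.48, adjusted p = 0.00458), *Igfbp3* (−2.47, 1.09e-05), *Igfbp4* (−1.01, 0.00924) and *Igfbp7* (−1.38, 0.000256). The kind of treatment, the partial knockdown, the culture and the table cannot be told apart in these differences. For *Igfbp2*, the knockdown estimate behind both differences did not pass on its own. With 3 libraries per group, single libraries far from their group were not searched for.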

How the results depend on the processing

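Limits: 3 libraries per group, low counts for *Igf1* and *Igfbp2*, an unstated strand setting, and comparisons that share DMSO. Of 330 member values under other scalings, filters, tests or the block, 311 kept direction and side of the threshold, 18 newly passed and 1 changed sign; of 630 with 1 library left out, 579 kept both, 18 lost the call, 9 gained it and 24 changed sign. The block changed no member's call beyond those given above. RLE, upper-quartile and unfiltered fits changed no member's call.

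With the replicate block, the counts of genes called were 4 members (4 also with DESeq2), 24 of the pathway list and 4727 of all genes for the knockdown; 8, 23 and 4630 for XAV939; 17 of the list and 4258 of all genes for IWR-1 against XAV939; and 7, 17 and 4018 for the XAV939 effect minus the knockdown effect. Fitting only XAV939 and DMSO gave 1569 genes in all. The cause of these shifts was not tested.

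Leaving out 1 library at a time gave 0 to 3 members, 1 to 16 of the list and 608 to 2868 of all genes for the knockdown (608 without siCtrl replicate 1), 1322 to 2484 of all genes for XAV939 (lowest without DMSO replicate 1), 3 to 5 members, 5 to 13 of the list and 1343 to 3044 genes for IWR-1 against XAV939 (lowest without IWR-1 replicate 2), 4 to 12 of the list and 1241 to 2159 genes for the XAV939 effect minus the knockdown effect (fewest genes without siCtrl replicate 1), and 11 to 18 of the list for IWR-1.

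Values near 0 changed sign when 1 library was left out. For the knockdown the ranges were −0.066 to 0.24 for *Igfbp3*, −0.067 to 0.16 for *Igfbp4*, −0.089 to 0.24 for *Igfbp5* and −0.16 to 0.043 for *Igfbp6*. For XAV939 the range was −0.11 to 0.39 for *Igf2r*. For IWR-1 against XAV939 they were −0.34 to 0.07 for *Igf1*, −0.17 to 0.064 for *Igf1r*, −0.53 to 0.28 for *Igfbp2* and −0.27 to 0.10 for *Igfbp6*. For effects minus the knockdown effect they were −0.34 to 0.19 for *Igf2r* (XAV939) and −0.16 to 0.19 for *Igf2* (IWR-1), and *Igf2* was 0.018 with upper-quartile scaling.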
